A study of Mus musculus with 8 samples.

Results

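The genes described here encode the proteins that make and dissolve blood clots. They are 33 named coagulation and fibrinolysis genes: the 3 fibrinogen chains, the numbered clotting factors, the contact system, the anticoagulant proteins, the plasminogen system, and the enzymes and carriers that finish and export these proteins. The members were chosen by name and role, with earlier results of these data known. All 33 were found among the 56953 gene identifiers of the count files, and all 33 had enough counts to be tested.

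Gene counts came from 8 whole livers of adult male mice. Both groups had spent 8 weeks on CDHFD, a high-fat diet without enough choline that gives fatty liver with inflammation and scarring. In 4 mice, labelled HSC-PCK1-KO and called knockout livers below, the gluconeogenic enzyme gene Pck1 had been removed from hepatic stellate cells, which store vitamin A and can become scar-forming cells. The 4 others (control) carried the wild-type genotype. All 8 libraries are labelled as a single batch. For the Cre line or promoter behind the deletion nothing is given in the sources used here, and no group on a normal diet was part of the comparison, so the values say nothing of the effect of the diet itself. The question put to the data is whether losing Pck1 in stellate cells is accompanied by a difference in the clotting gene program of the liver.

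Most plasma clotting proteins are made by hepatocytes, the main cells of the liver, and secreted into the blood. Thrombin, made from prothrombin (F2), cuts fibrinogen into fibrin, and plasmin, made from plasminogen (Plg), dissolves it again. Several factors need vitamin K for the gamma-carboxylation of glutamate residues, which lets them bind calcium and membranes. Other parts of the system are made outside hepatocytes: factor VIII and von Willebrand factor mainly in endothelial cells, and the plasminogen activators and their receptor in endothelial, stromal and inflammatory cells. In whole tissue, fewer cells of a type and less RNA per cell cannot be told apart.

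Library totals ranged from 44695439 to 49477255 counts. Levels are given in CPM, the counts of a gene brought to a common library size with TMM factors, and group levels are means ± SD (n = 4). Pck1 itself ranged from 550 to 2012 CPM in control and from 339 to 948 CPM in knockout livers, overlapping groups, and since hepatocytes express Pck1 strongly, whole liver is no check of the stellate cell deletion. Albumin (Alb), the defining hepatocyte product, stood between 57463 and 81204 CPM in the 8 libraries. Over 11 marker lists of liver cell types and responses, the median log2 fold change ranged from -1.03 for 7 mesothelial genes to 0.49 for 5 blood genes, and none of the markers passed 0.05 after edgeR's adjustment.

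No difference between knockout and control livers passed the test in any of the 33 genes. In edgeR's quasi-likelihood test, adjusted over all 15669 genes tested, 0 of the 33 passed 0.05, against 0% of all genes. DESeq2 and limma-voom also called 0 of the 33, where they called 0.0383% and 0% of all genes. At an unadjusted p under 0.05 edgeR found 1 member, Vkorc1 (higher), against 2.36% of all genes in either direction and 1.02% in the higher direction. By the same measure DESeq2 found 1 member, Vkorc1, against 2.34% of all genes, and limma-voom found 2, Vkorc1 and F3, against 2.37%. In 0 of the 33 genes did the 4 knockout values lie wholly above or below the 4 control values, which was the case for 1.53% of all genes (0.721% above and 0.811% below). The median log2 fold change (HSC-PCK1-KO minus control) was -0.029 over the members and -0.0055 over all genes, with 21 members below 0 and 12 above, where 51.8% of all genes were below 0.

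The intervals bound how large a difference could have been missed. The 95% interval of the log2 fold change excluded a 2-fold rise for 33 of 33 genes and a 2-fold fall for 31, the exceptions being Plat and Plaur. It excluded a 1.5-fold difference in both directions for 26. The other 7 were Vkorc1, F3, F11, F13a1, Plat, Plau and Plaur. Of all 15669 genes tested, the interval excluded a 2-fold rise for 14609, a 2-fold fall for 14292 and a 1.5-fold difference in both directions for 10461. The 33 genes together held between 1.96% and 2.18% of all counts of a library, and the groups overlapped in that share.

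**Figure D1:**
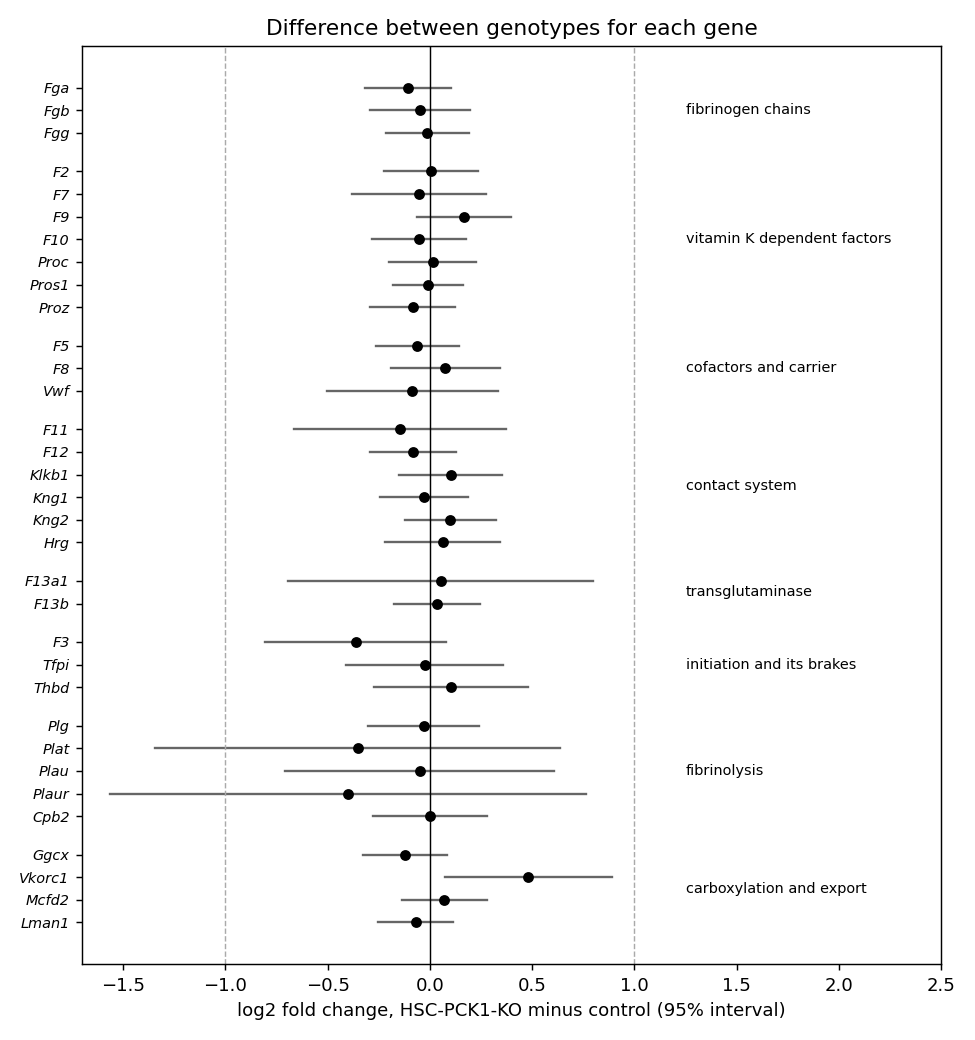
Log2 fold change (HSC-PCK1-KO minus control) of each of the 33 genes, in blocks by role. Points are edgeR estimates, lines are 95% intervals and the dashed lines mark a 2-fold difference. The intervals of 32 genes cross 0, Vkorc1 is the exception, and those of Plat and Plaur extend past a 2-fold fall.

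Levels spanned 4 orders of magnitude and fell into a high and a low tier. Compared per length, in CPM per kilobase of annotated exon and averaged over the 8 libraries, Fga stood highest at 1361 ± 94.4 (SD, n = 8), next to Fgg at 1355 ± 70.7, and the ranges of these neighbours overlapped. Fgb followed at 950 ± 84.4, Plg at 611 ± 69.3, Kng1 at 472 ± 33.5, Hrg at 471 ± 58.6 and F2 at 334 ± 27.8 CPM per kilobase. Kng1 and Hrg did not separate, nor did Hrg and F2, while Fgg, Fgb, Plg and Kng1 had ranges that did not touch. Below them F12, Cpb2 and Proc stood at 244, 173 and 152 CPM per kilobase, and the high tier ended with Ggcx at 15.1 and Pros1 at 14.8.

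The low tier held 10 genes under 20 CPM. It began with Vkorc1 at 4.77 CPM per kilobase and went on with F3 at 1.63, Tfpi at 1.34, F8 at 1.18, Thbd at 1.14 and Plau at 1.02, whose ranges overlapped from each to the next from F3 on. It ended with Plaur at 0.456, Vwf at 0.379, Plat at 0.146 and F13a1 at 0.0527 CPM per kilobase. Apart from Vkorc1, these are the members known mainly from cells other than hepatocytes. The place of Vkorc1 is uncertain, since 47.7% of its exon bases are also exon of another gene, as described below. The exon length is the union over all transcripts of a gene, so a gene with many long transcripts that the liver does not use is placed too low.

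**Figure D2:**
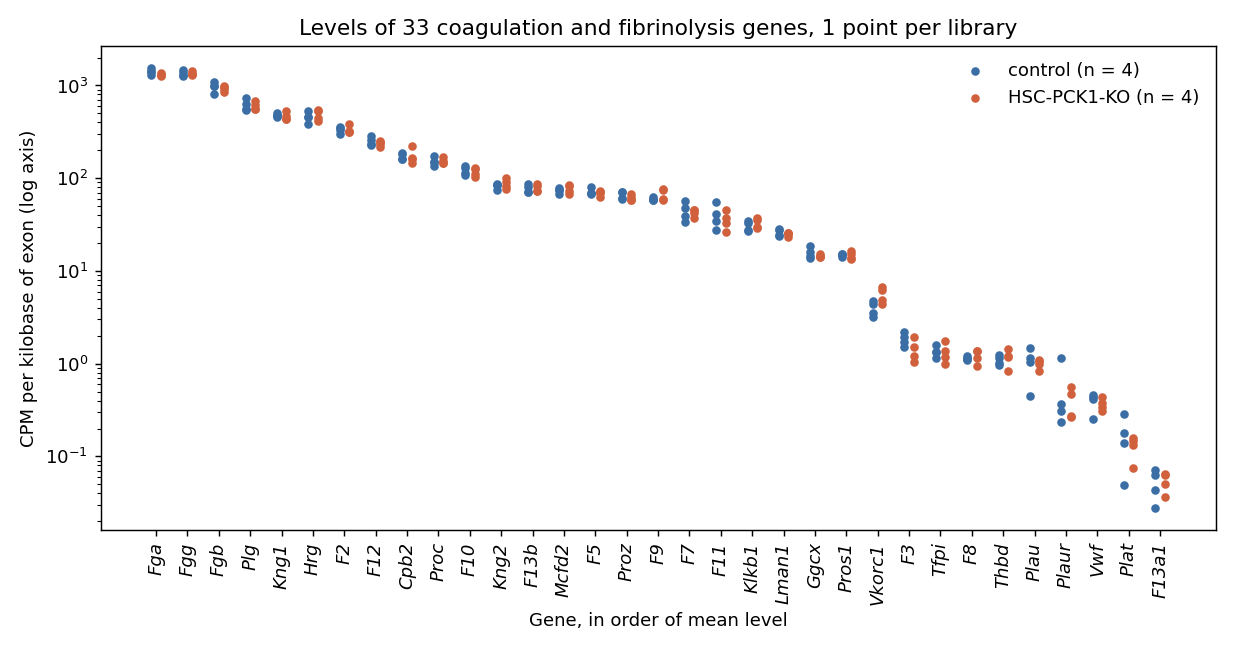
Level of each gene in CPM per kilobase of exon on a log axis, ordered by the mean of the 8 libraries. Each point is a library, 4 control and 4 HSC-PCK1-KO. The fibrinogen chains lead with means of 1361, 1355 and 950, F13a1 ends at 0.0527, and the genotypes overlap in every gene.

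Fibrinogen, the substrate of the clot, is built from 3 chains, Aα, Bβ and γ, encoded by Fga, Fgb and Fgg. Fga (ENSMUSG00000028001.17) had 4162, 4654, 4312 and 3866 CPM in control livers 1 to 4 and 3906, 3879, 3844 and 4150.4 CPM in knockout livers 1 to 4. Knockout liver 3 lay just under the lowest control and the other 3 lay inside the control range. The log2 fold change was -0.11 (SE 0.095), with a 95% interval from -0.32 to 0.10 (edgeR adjusted p = 0.9998).

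Fgb (ENSMUSG00000033831.6) had 3749, 4108, 3765 and 3101 CPM in control and 3798, 3646, 3249 and 3529.9 CPM in knockout livers. Both the highest and the lowest value belonged to controls, livers 2 and 4. Fgg (ENSMUSG00000033860.14) had 2728, 2926, 3096 and 2647 CPM in control and 2964, 2803, 2730.1 and 2795 CPM in knockout livers, all of them inside the control range. The log2 fold changes were -0.05 (SE 0.11) for Fgb and -0.013 (SE 0.092) for Fgg. The 3 transcripts together made up 0.995% to 1.12% of all counts of a library and 48.7% to 53.1% of the counts of the 33 genes.

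The ratio of the chains was narrow. Per kilobase, Fga stood at 0.916 to 1.11 times Fgg and at 1.302 to 1.58 times Fgb in the 8 libraries. Across the 8 libraries Fga and Fgb had a Pearson's r of 0.736 (exact permutation p = 0.0399) and a Spearman's rho of 0.786 (exact permutation p = 0.0279), which did not pass adjustment over the 12 pairs of members compared (adjusted p = 0.202 and 0.221, exact permutation). Without control livers 2 and 3, the farthest on Fga, r was 0.465 (exact permutation p = 0.332). Fgb and Fgg had r = 0.71 (exact permutation p = 0.0505, adjusted p = 0.202) and rho = 0.762 (exact permutation p = 0.0368, adjusted p = 0.221), and r was 0.396 without control liver 4 and knockout liver 3. Fga and Fgg had r = 0.517 (exact permutation p = 0.197, adjusted p = 0.391, rho = 0.524), and r was 0.00032 without control livers 2 and 3.

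Fibrinogen genes are textbook acute phase genes, switched on by interleukin-6. Knockout liver 1 had 1165 CPM of serum amyloid A1 (Saa1), another acute phase gene, where the other 7 livers had 47.6 to 231 CPM. Its summed level of 10 acute phase markers was 9442.5 CPM, against 5170 to 6972 CPM in the others. The markers were not uniform. Saa1, Saa2, Orm1, Orm2, Hp and Itih4 were highest in that liver, while Apcs, Saa3, Lcn2 and Socs3 were not. Lcn2 had 30.3 CPM there and 97.9 CPM in control liver 4, and Saa3 5.87 and 14.045 CPM. Socs3 had 4.13 CPM in knockout liver 1 and 7.6 CPM in knockout liver 3. In knockout liver 1 Fga, Fgb and Fgg, given above, were all within the range of the control livers.

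The 3 chains lie side by side on chromosome 3, with start sites 18429 bases (Fgg to Fga) and 23710 bases (Fga to Fgb) apart in GRCm38.p6. Their upstream sequences are shown because these genes lead the list in level and encode chains of 1 protein. Each run holds the 250 bases before the start site, 5′ to 3′ on the gene's strand, from RefSeq on GRCm38.p6: chr3:83025903-83026152 on the plus strand for Fga, chr3:83049864-83050113 on the minus strand for Fgb and chr3:83007474-83007723 on the plus strand for Fgg. Capitals mark matches, on either strand, to 4 short motifs: the HNF1 core GTTAAT, the STAT3 acute phase core CTGGGAA, the C/EBP core TTGCNNAA and the HNF4 core CAAAGTC.
Fga: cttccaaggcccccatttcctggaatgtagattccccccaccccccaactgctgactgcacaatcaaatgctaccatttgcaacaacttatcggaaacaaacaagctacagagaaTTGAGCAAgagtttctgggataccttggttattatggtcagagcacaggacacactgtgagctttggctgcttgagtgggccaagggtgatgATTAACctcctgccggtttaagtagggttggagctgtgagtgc
Fgb: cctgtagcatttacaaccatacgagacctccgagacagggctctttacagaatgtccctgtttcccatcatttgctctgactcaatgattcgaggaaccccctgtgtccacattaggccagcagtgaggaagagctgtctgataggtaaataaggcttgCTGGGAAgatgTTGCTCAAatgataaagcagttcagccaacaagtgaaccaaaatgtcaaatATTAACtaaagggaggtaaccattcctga
Fgg: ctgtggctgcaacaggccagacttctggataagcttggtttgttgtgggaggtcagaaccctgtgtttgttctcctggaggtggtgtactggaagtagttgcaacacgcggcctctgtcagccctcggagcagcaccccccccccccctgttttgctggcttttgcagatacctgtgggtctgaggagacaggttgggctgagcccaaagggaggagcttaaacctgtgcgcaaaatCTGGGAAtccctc

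Fga held the HNF1 core on the reverse strand, from -43 to -38 of its start site, and the C/EBP core from -135 to -128. Fgb held the HNF1 core from -29 to -24, the STAT3 core from -91 to -85 and the C/EBP core from -80 to -73. Fgg held the STAT3 core from -13 to -7. No matches overlapped. Over 32851 promoter windows of the same length, 6.43% held the HNF1 core, 9.10% the STAT3 core, 9.56% the C/EBP core and 3.84% the HNF4 core. Of the 33 genes 25 had a promoter window, with 27 windows in all. Of these genes 4 held the HNF1 core (F13b, Fga, Fgb and Proz) and 4 the STAT3 core (F9, Fgb, Fgg and Tfpi). The C/EBP core was held by 9 and the HNF4 core by 1 (Tfpi). Counted by window, as over all promoters, the numbers were also 4, 4, 9 and 1 of 27. A match is a run of letters, not a shown binding site.

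**Figure D3:**
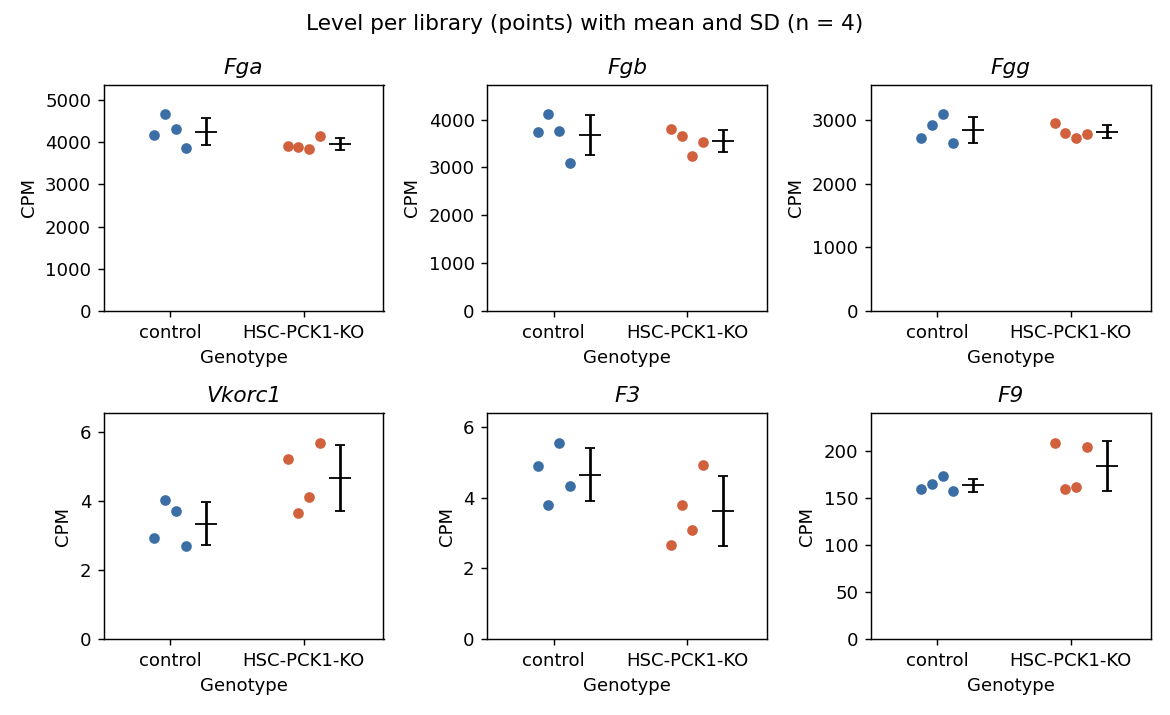
CPM of 6 genes in every library, with the mean and SD of each genotype (n = 4) and axes from 0. The fibrinogen chains overlap between the genotypes, Vkorc1 is centred higher and F3 lower in knockout livers with overlap, and F9 is higher in 2 of the 4 knockout livers.

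The 7 vitamin K dependent members cover both the clotting enzymes prothrombin (F2) and factors VII, IX and X (F7, F9, F10) and the anticoagulants protein C (Proc), its cofactor protein S (Pros1) and protein Z (Proz), the cofactor of an inhibitor of factor Xa. F9 (ENSMUSG00000031138.5), the gene mutated in haemophilia B, had 159, 165, 173 and 158 CPM in control and 209, 159, 162 and 205 CPM in knockout livers. Knockout livers 1 and 4 thus exceeded every control, while livers 2 and 3 were at control level. The log2 fold change was 0.17 (SE 0.10, edgeR unadjusted p = 0.137, adjusted p = 0.9998).

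Proz (ENSMUSG00000031445.6) had 329, 392, 393 and 342 CPM in control and 378, 349, 320.1 and 326 CPM in knockout livers. The groups overlapped, and the log2 fold change was -0.084 (SE 0.094). The other 5 had log2 fold changes from -0.054 for F7 to 0.014 for Proc. F2 averaged 1533 ± 118 CPM in control livers and 1539.6 ± 155 CPM in knockout livers (SD, n = 4). Pros1 stood at 60.9 ± 1.99 and 60.4 ± 5.92 CPM. For all 7 genes the interval excluded a 1.5-fold difference either way.

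Factors V and VIII are the cofactors that speed up the factor X and thrombin making complexes, and von Willebrand factor carries factor VIII in plasma. F5 (ENSMUSG00000026579.9) had 507, 604, 519 and 515 CPM in control and 544, 512, 466 and 533 CPM in knockout livers. Control liver 2 stood apart from the other 3 controls, and the log2 fold change of -0.063 (SE 0.091) was -0.0009 without it.

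F8, made mainly by sinusoidal endothelial cells, averaged 11.4 ± 0.48 CPM in control livers and 12.02 ± 2.06 CPM in knockout livers (SD, n = 4), and Vwf stood at 6.27 ± 1.52 and 5.90 ± 0.90 CPM. The lowest F8 value, 9.33 CPM, was that of knockout liver 2, which also had the lowest summed level of 8 sinusoidal endothelial markers, 252 CPM against 283 to 334 CPM in the other 7 livers. Vwf was lowest, at 4.03 CPM, in control liver 3. The part of endothelial content in these values was not tested.

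The contact system starts clotting on charged surfaces and releases bradykinin from kininogen. F12 (ENSMUSG00000021492.16), which encodes Hageman factor, had 446, 556, 502 and 461 CPM in control and 461, 492, 476 and 427 CPM in knockout livers, a log2 fold change of -0.083 (SE 0.094). Klkb1 (ENSMUSG00000109764.2), the gene of plasma prekallikrein, had 141, 181, 174 and 143 CPM in control and 184, 157, 152 and 194 CPM in knockout livers, a log2 fold change of 0.10 (SE 0.11). In both genes each group held high and low livers.

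Kng2 (ENSMUSG00000060459.15), a kininogen gene, had 230.3, 203, 228 and 239 CPM in control and 278, 250.3, 208 and 228 CPM in knockout livers, a log2 fold change of 0.10 (SE 0.10). Kng1, the other kininogen gene, stood at 1549 ± 65.1 and 1518 ± 151 CPM (SD, n = 4). Of the 100-base windows of Kng1 transcripts 4.93% also occur in Kng2, so reads from those stretches cannot be assigned to 1 of them alone. F11 varied most between livers in this group, from 59.3 to 123 CPM, with the highest value in control liver 2 and the lowest in knockout liver 2. Hrg, a histidine-rich plasma protein that binds heparin and plasminogen, stood at 918 ± 120.1 and 959 ± 128 CPM.

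Factor XIII is the transglutaminase that cross-links fibrin. Its carrier subunit F13b, a hepatocyte product, averaged 195 ± 18.6 CPM in control livers and 199.99 ± 18.2 CPM in knockout livers (SD, n = 4). The catalytic subunit F13a1, made by monocytes, macrophages and megakaryocytes, stood at 0.347 ± 0.13 and 0.363 ± 0.089 CPM. In F13a1 the log2 fold change of 0.052 ranged from -0.14 without control liver 2 to 0.25 without control liver 4, and it was also below 0 without control liver 3 or knockout liver 3 or 4. The 8 megakaryocyte and platelet markers summed to 12.5 to 20.2 CPM in control and to 13.1 to 18.2 CPM in knockout livers. Gp1bb was at 0 in every library and Gp9 at no more than 0.223 CPM, while Itga2b stood at 3.14 to 3.92 CPM and Clec1b at 7.76 to 14.3 CPM. The part of platelets or megakaryocytes in the level of F13a1 was not tested.

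Tissue factor (F3) starts clotting outside the vessel, tissue factor pathway inhibitor (Tfpi) stops that step, and thrombomodulin (Thbd) turns thrombin into an activator of protein C. F3 (ENSMUSG00000028128.14) had 4.91, 3.80, 5.56 and 4.34 CPM in control and 2.66, 3.80, 3.07 and 4.92 CPM in knockout livers. Knockout livers 1 and 3 were below every control, and the other 2 lay inside the control range. The log2 fold change was -0.36 (SE 0.20), with a 95% interval from -0.81 to 0.079 (edgeR unadjusted p = 0.0976, adjusted p = 0.9998). It ranged from -0.55 without knockout liver 4 to -0.24 without knockout liver 1, in each case short of an adjusted p of 0.05.

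Tissue factor and thrombomodulin are also made by the mesothelium that covers the liver. The 7 mesothelial markers summed to 5.75 to 13.3 CPM in control and to 2.93 to 5.71 CPM in knockout livers, with no marker at 0 in all libraries. The 11 stellate and myofibroblast markers summed to 342 to 519 CPM in control and to 284 to 388 CPM in knockout livers. Both sums were lowest in knockout liver 1, and the part of either cell type in the values of F3 was not tested. Thbd averaged 4.07 ± 0.46 CPM in control livers and 4.38 ± 0.94 CPM in knockout livers (SD, n = 4). Its log2 fold change was 0.10 (SE 0.17), with a 95% interval from -0.27 to 0.48. The part of the mesothelium in the values of Thbd was likewise not tested. Tfpi had means of 7.37 ± 0.97 CPM for control and 7.25 ± 1.83 CPM for knockout livers.

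In fibrinolysis the precursor is a hepatocyte product and its activators are not. Plg, plasminogen, averaged 2292 ± 328 CPM in control livers and 2245 ± 212 CPM in knockout livers (SD, n = 4). Its log2 fold change was -0.03 (SE 0.12). Cpb2, the carboxypeptidase that removes plasmin binding sites from fibrin, had the estimate nearest 0 of all 33 genes, at 282 ± 22.3 and 282 ± 52.8 CPM. Of the Plg exon bases 11.3% lie opposite exons of Slc22a3, and as the strand setting of the counting is not given here, a share of antisense reads cannot be told apart.

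Urokinase (Plau), tissue plasminogen activator (Plat) and the urokinase receptor (Plaur) turn plasminogen into plasmin or place that reaction on cell surfaces. Plaur (ENSMUSG00000046223.11) had 0.953, 0.613, 0.803 and 3.04 CPM in control and 0.715, 1.246, 1.47 and 0.691 CPM in knockout livers. Control liver 4 stood far above all others. The log2 fold change of -0.40 (SE 0.52) had a 95% interval from -1.56 to 0.76 and became 0.38 without that liver. Plat (ENSMUSG00000031538.7) had 1.12, 0.306, 0.866 and 1.78 CPM in control and 0.469, 0.985, 0.914 and 0.833 CPM in knockout livers, a log2 fold change of -0.35 (SE 0.44) that became 0.062 without control liver 4. Plau (ENSMUSG00000021822.4) had 2.74, 1.06, 2.49 and 3.48 CPM in control and 2.52, 2.35, 1.97 and 2.62 CPM in knockout livers. Its knockout values all lay inside the control range.

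The last group finishes and exports the other proteins. Ggcx carboxylates the vitamin K dependent factors, Vkorc1 recycles the vitamin and is the target of warfarin, and Lman1 and Mcfd2 form the cargo receptor that carries factors V and VIII from the endoplasmic reticulum. Vkorc1 (ENSMUSG00000096145.3) had 2.94, 4.03, 3.72 and 2.70 CPM in control and 5.20, 3.66, 4.11 and 5.69 CPM in knockout livers. Only knockout liver 2 lay inside the control range. The log2 fold change was 0.48 (SE 0.18), with a 95% interval from 0.072 to 0.89 (edgeR unadjusted p = 0.0254, adjusted p = 0.9998).

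One gene of 33 is a share near the background of 2.36%. The Vkorc1 estimate stayed between 0.37 and 0.58 with any of the 8 libraries left out, while its unadjusted p missed 0.05 without control liver 1 or 4 or knockout liver 1 or 4, and with the replicate number as a block. The level of Vkorc1 is uncertain: in GENCODE M21, 47.7% of its exon bases are also exon of Gm21974 on the same strand, and Gm21974 is listed at 0 in every library. Whether reads of the shared bases were counted for either gene is not given in the sources used here. Likewise 43.2% of Klkb1 exon bases are shared with Gm45753, which had at most 0.0422 CPM.

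Ggcx (ENSMUSG00000053460.9) had 51.4, 60.5, 44.4 and 47.6 CPM in control and 49.0, 45.3, 46.3 and 46.9 CPM in knockout livers, all of the latter inside the control range. Lman1 (ENSMUSG00000041891.17) had 241, 249, 216 and 211 CPM in control and 228, 203, 225 and 218 CPM in knockout livers, with a log2 fold change of -0.069 (SE 0.082). Mcfd2 stood at 208 ± 12.8 and 218 ± 23.9 CPM (SD, n = 4). Per length, Mcfd2 stood at 75.3 and Lman1 at 25.4 CPM per kilobase.

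Among 44 other haemostasis genes, which include inhibitors, receptors, clearance receptors, enzymes, platelet genes and others, 38 had enough counts to be tested. In edgeR's quasi-likelihood test 0 passed an adjusted p of 0.05, against 0% of all genes, and 0 reached an unadjusted p under 0.05, against 2.36%. Of the 38, 25 had a log2 fold change below 0 and 13 above, where 51.8% of all genes were below 0, and the median was -0.046. The smallest p belonged to F2r, the thrombin receptor PAR1, at 39.9 ± 3.02 CPM in control and 34.6 ± 5.37 CPM in knockout livers (SD, n = 4). Hgfac, the protease that activates hepatocyte growth factor, stood at 257 ± 18.1 and 229 ± 26.2 CPM, Nqo1, a quinone reductase, at 8.89 ± 2.47 and 11.4 ± 2.43 CPM, and Lrp1, a clearance receptor of factor VIII and of plasminogen activators, at 754 ± 90.2 and 679 ± 35.8 CPM. Antithrombin (Serpinc1), the main inhibitor of thrombin, stood at 1937 ± 159 and 1809.7 ± 87.3 CPM.

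No library was highest or lowest in every member. Of the 23 members at 20 CPM or more, control liver 2 had the highest value of the 8 in 11, knockout liver 1 in 7, knockout liver 4 in 3 and control liver 3 in 2. Over all 5493 genes at that level, control liver 2 was highest in 23.9% and knockout liver 1 in 16.0%. Control liver 1 was lowest in 6 of the 23, and control liver 4 and knockout liver 3 in 5 each, where these were lowest in 13.02%, 18.3% and 11.8% of the 5493 genes. The highest value exceeded the lowest by a median of 1.301-fold in these members, against 1.28-fold over all 5493 genes, and by 2.10-fold in the 10 members of the low tier.

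**Figure D4:**
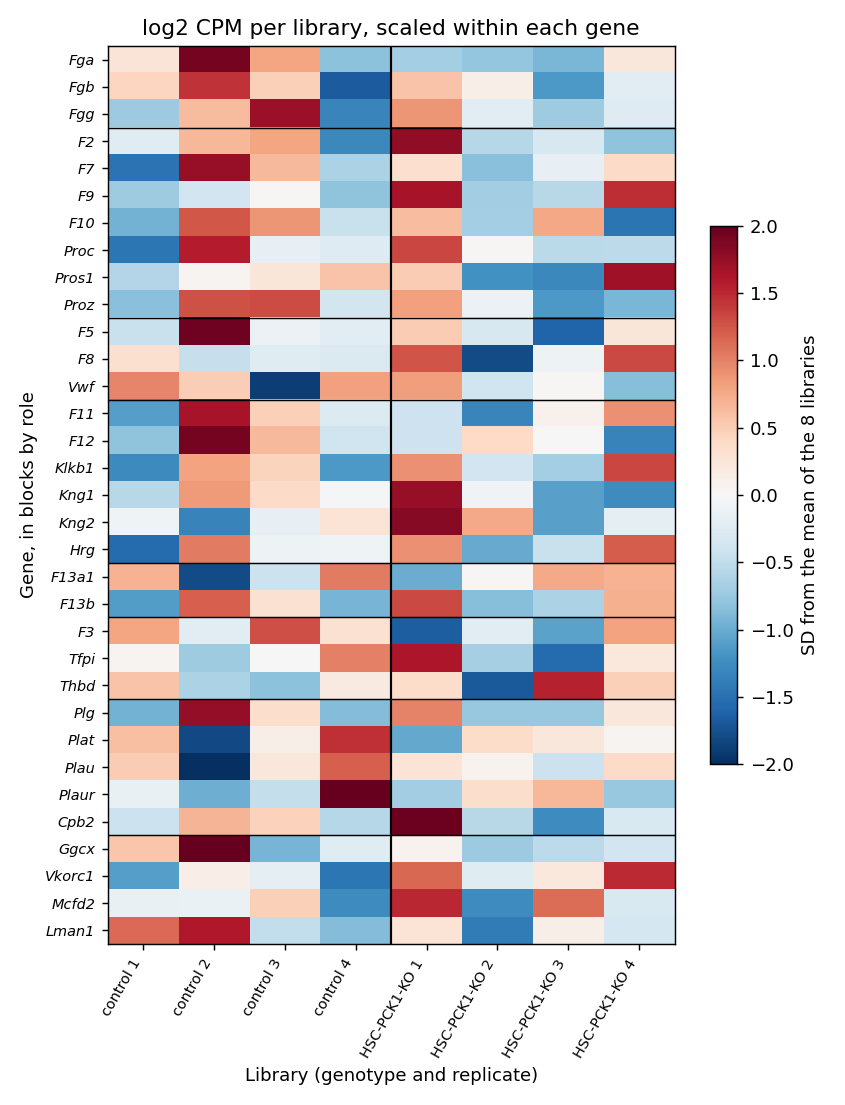
Log2 CPM of the 33 genes in each library, as SDs from the mean of that gene, with genes in blocks by role and a line between the 4 control and the 4 HSC-PCK1-KO libraries. Control 2 is the highest library in 11 of the 23 genes at 20 CPM or more and the lowest in F13a1, Plat, Plau and Plaur, and no block parts the genotypes.

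Control liver 2 had the lowest and control liver 4 the highest value of all 8 livers in Plat, Plau, Plaur and F13a1 alike, a set picked after its values were seen. The score of 10 recruited monocyte and macrophage markers (mean z score of log2 CPM) was also lowest in control liver 2, at -1.19, and highest in control liver 4, at 1.29. Gpnmb, a gene of lipid-loaded macrophages, had 0.141 and 16.8 CPM in these livers. The hepatocyte marker score was highest in control liver 2, at 0.77, and lowest in control liver 4, at -0.71. The summed level of the same 10 hepatocyte markers was instead highest in control liver 1, at 108380 CPM, and lowest in knockout liver 3, at 85626 CPM. The markers differed among themselves: control liver 2 had the highest Serpina1e, at 7096 CPM, and the lowest Cyp3a11, at 779 CPM.

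Each of the 33 genes was set against that macrophage score across the 8 libraries, a relation added after the data were seen and computed for all 15669 genes tested. After adjustment over all of them 0 of the 33 genes passed 0.05 by exact permutation, against 0% of all genes. At an unadjusted p under 0.05 were 11 of the 33, against 15.6% of all genes. Of these, 4 had r above 0, against 8.61% of all genes, and 7 had r below 0, against 6.95%. In all, 23 of the 33 had r below 0, against 51.3% of all genes. With the score recomputed over the remaining libraries, 3 of the 33 were at an unadjusted p under 0.05 without control livers 2 and 4, the farthest on the score. By the same measure there were 5 without control liver 2 alone and 7 without knockout liver 2 alone.

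The relations farthest above 0 were those of Plat and F13a1. Plat had Pearson's r = 0.942 and Spearman's rho = 0.81 (exact permutation p = 0.00102 and 0.0218, adjusted p = 0.156 and 0.285). F13a1 had r = 0.882 and rho = 0.786 (exact permutation p = 0.00211 and 0.0279, adjusted p = 0.156 and 0.305). Its relation rests on few counts, as F13a1 had 0.189 to 0.478 CPM in the 8 libraries. With the score of all 8 libraries kept, r without control livers 2 and 4 was 0.772 for Plat (exact permutation p = 0.0569) and 0.775 for F13a1 (exact permutation p = 0.0778). With 1 library left out at a time and the score recomputed, r stayed between 0.906 and 0.966 for Plat and between 0.788 and 0.934 for F13a1.

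Plau and Plaur had r = 0.798 each, with rho of 0.595 and 0.667 (Pearson exact permutation p of 0.021 and 0.0183, adjusted p of 0.245 and 0.239). Without control livers 2 and 4, on the score of all 8 libraries, r was 0.0553 and 0.322. Below 0, F2 had r = -0.843 (rho = -0.881, Pearson exact permutation p = 0.00826, adjusted p = 0.202), Plg -0.823 (rho = -0.738) and Fgb -0.821 (rho = -0.833). Without control livers 2 and 4, again on the score of all 8 libraries, these were -0.964, -0.703 and -0.328. All CPM values of a library share its total. The summed level of the 10 markers, none at 0 throughout, was 1740.5 to 2114.6 CPM in control and 1611 to 1822 CPM in knockout livers. Most of that sum was Fn1, also a hepatocyte product, at 1434 to 2020 CPM, and the sum was highest in control liver 2, where the score was lowest. The part of macrophage content in these gene levels was not tested.

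**Figure D5:**
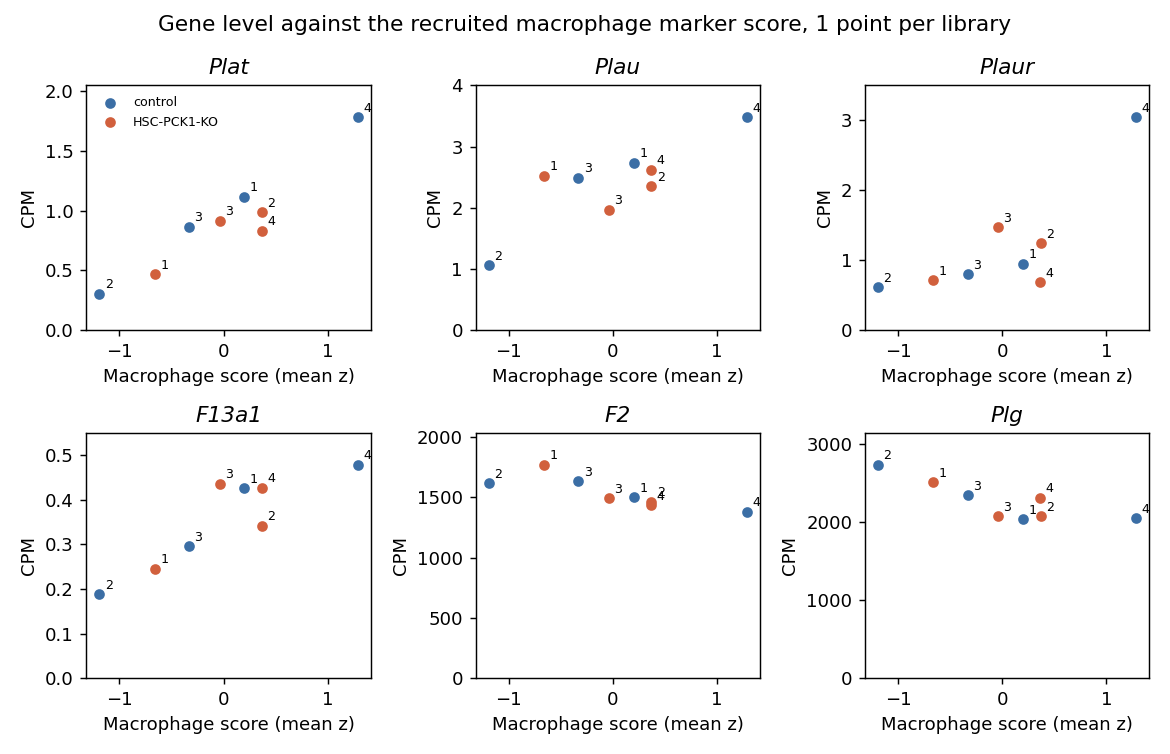
CPM of 6 genes (y axes from 0) against the recruited macrophage marker score (x axes, mean z score of 10 genes), 1 point per library with its replicate number. Control 2 at the low end and control 4 at the high end of the score hold the lowest and highest values of Plat, Plau, Plaur and F13a1, and r is above 0 for these 4 genes and below 0 for F2 and Plg.

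Of 12 pairs of members that act together, compared across the 8 libraries, 0 passed an adjusted p of 0.05 in an exact permutation test. The farthest from 0 was F13a1 with F13b, the subunits of factor XIII, with r = -0.758 (exact permutation p = 0.0349, adjusted p = 0.202, rho = -0.643). Without control liver 2 and knockout liver 1 that r was -0.341. F13a1 had few counts, at 0.189 to 0.478 CPM. F11 and Klkb1, related contact system genes, had r = 0.649 (exact permutation p = 0.087, rho = 0.524), and 0.455 without the 2 libraries farthest on Klkb1. Lman1 and Mcfd2, the partners of the cargo receptor, had r = 0.408 (exact permutation p = 0.317, rho = 0.548), F8 and its carrier Vwf r = 0.133 (exact permutation p = 0.744, rho = 0.143), and Ggcx and Vkorc1 r = -0.029 (exact permutation p = 0.948, rho = -0.024). Without the 2 farthest libraries these were 0.383, 0.367 and 0.286. The remaining pairs lay between r = -0.339 for Proc and Thbd (rho = -0.714) and r = 0.52 for Plau and Plaur (rho = 0.31), with adjusted exact permutation p from 0.391 to 0.958. Without control livers 2 and 4 the r of Plau and Plaur was -0.786 (exact permutation p = 0.0375).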

How the data were processed

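Whole-liver RNA of 4 control and 4 HSC-PCK1-KO mice was counted per gene. The authors deposited raw counts, not normalized, for 56953 gene identifiers in each of 8 files. Per the submitters' processing notes the build was GRCm39 and R 4.3.2 was used. For the aligner, counter, annotation and strand setting nothing is given in the sources used here. Symbols came from GENCODE M21 by identifier (52029 named), exon lengths from the same release. Totals ranged from 44695439 to 49477255 counts.

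Genes were filtered with filterByExpr, which kept 15669 of 28811 with any count, scaled with TMM and compared with edgeR 4.0.16 (quasi-likelihood F-test, robust, genotype as only term) in R 4.3.3, with Benjamini-Hochberg adjustment over all genes and a threshold of 0.05. Log2 CPM for correlations used a prior count of 2. Alternatives were RLE and upper quartile factors, other filters, DESeq2 1.42.0, a block for the replicate number, limma-voom (limma 3.58.1) with weights per sample, and each library left out in turn. The edgeR fit was also run on counts simulated from its own estimates, and the outcome is not given here. The members and lists were chosen with earlier results of these data known. Values in every library are given for the fibrinogen chains, the 10 members with the smallest p and those with a library far from its group, and, after values were seen, for Plat and Plau. The design text calls the samples biological replicates. No 2 libraries of a group were copies (chi-square over degrees of freedom at least 44.4).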

Additional observations from a re-analysis of the deposited data

Results flagged for a closer look

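Over 33 genes and both genotypes, 66 groups of 4 libraries were screened for a library standing apart; about 1 in 20 groups, here 3.3, does so by chance, and 2 did. F5, factor V, stood at 604 CPM in control liver 2, against 507 to 519 CPM in the other controls. Plaur, the urokinase receptor, stood at 3.04 CPM in control liver 4, against 0.613 to 0.953 CPM in the other controls. The same livers were the extremes of the macrophage marker score, and its part in these values was not tested.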

How the results depend on the processing

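No member was called under any of the 15 alternatives, with a smallest adjusted p of 0.94 (edgeR, no filter on low counts). Of the 33 genes 13 kept their direction under all 15, and 29 under the 7 that keep all libraries. F13a1, Plat and Plaur had no value under the filter of 1 CPM in 4 libraries. Same-numbered libraries of both genotypes did not deviate together (r of deviations -0.33 to 0.053, and none of the 4 pairs correlated best with its own number), so the numbers were not taken as pairs. With the replicate block, 0 members reached an unadjusted p under 0.05 and Plau turned to 0.041, and no adjusted call changed. DESeq2 called 2 of all genes higher and 4 lower; with no filter 320 were higher and 366 lower at an unadjusted p under 0.05. The limma-voom fit put 1 member lower at that level, with a log2 fold change of F3 of -0.45 (unadjusted p = 0.0332), and turned F2 to -0.0103 and F8 to -0.00197. The log2 fold change of Cpb2, near 0, turned to 0.00145 (RLE factors), 0.00719 (upper quartile factors), 0.00401 (no filter), 0.0022 (1 CPM filter) and 0.001449 (DESeq2).

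With each library left out in turn, all genes called higher ranged from 0 to 1, and at an unadjusted p under 0.05 from 101 to 246 higher and from 147 to 270 lower. Members at that level ranged from 0 to 1 in each direction, other haemostasis genes from 0 to 1 higher and from 0 to 2 lower, and members related to the macrophage score at an unadjusted p under 0.05 from 5 (without control liver 2) to 12, where all libraries gave 11. The log2 fold changes whose sign turned ranged over F2 -0.0684 to 0.0432, F7 -0.163 to 0.0867, F10 -0.103 to 0.00494, F11 -0.29 to 0.0535, F13a1 -0.141 to 0.247, F13b -0.0185 to 0.0912, Fgb -0.122 to 0.00707, Fgg -0.0451 to 0.034, Plg -0.0898 to 0.0661, Plat -0.646 to 0.0621, Plau -0.296 to 0.17, Plaur -0.635 to 0.383, Proc -0.0395 to 0.0825, Pros1 -0.0694 to 0.0284, Kng1 -0.0992 to 0.00749, Hrg -0.0142 to 0.14, Cpb2 -0.138 to 0.0714, Tfpi -0.198 to 0.0887, Thbd -0.0147 to 0.235. The correlations whose sign turned ranged over -0.0467 to 0.4001 for F8 and Vwf, -0.172 to 0.0822 for Ggcx and Vkorc1, -0.414 to 0.732 for F3 and Tfpi, -0.0814 to 0.844 for Kng1 and Kng2. Without the 2 libraries farthest on the x axis and with the score recomputed, 3 members were related to the macrophage score at that level. Without the 2 farthest libraries of each pair, Pearson's r turned to 0.286 for Ggcx and Vkorc1, -0.786 for Plau and Plaur, 0.809 for F3 and Tfpi and -0.0625 for Kng1 and Kng2. With upper quartile factors 7 members were so related, and Pearson's r of F3 and Tfpi was 0.0255. Apart from the construction of each alternative, the cause of these shifts was not tested. Precision was lowest for Plat and Plaur, at levels near 1 CPM, with SEs of 0.44 and 0.52.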
